A study of Mus musculus with 6 samples.

Results

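The genes described are 8 genes of the intrinsic, or mitochondrial, pathway of apoptosis, chosen by name among the 11339 genes of the expression table: the effectors *Bax* and *Bak1*, the apoptosome genes *Apaf1* and *Casp9*, the BH3-only gene *Bcl2l11*, the pro-survival genes *Bcl2* and *Bcl2l1*, and the caspase inhibitor *Xiap*. All 8 were found in the table. RNA was measured by sequencing in whole retinas of mice at postnatal day 14 (P14), in 3 *Mll1KO* and 3 WT samples, each pooled from 2 retinas. *Mll1KO* mice carried *Mll1* fl/fl alleles and *Chx10-Cre*, a transgene that drives Cre in the progenitor cells of the retina, on a C57Bl6/J background. WT mice were C57Bl6/J of the same age, not Cre-negative littermates, so the deletion and the presence of the Cre transgene cannot be told apart. The study's methods state that both sexes were included in each experiment. The comparison asks how RNA levels in the retina differ when the histone methyltransferase gene *Mll1* is deleted in progenitors.

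In the intrinsic pathway, BH3-only proteins are switched on by cellular stress and bind the pro-survival members of the BCL2 family. The effectors BAX and BAK1, once free to act, permeabilise the outer mitochondrial membrane, cytochrome c leaves the mitochondria, and APAF1 assembles with it into the apoptosome, which activates caspase-9 and through it the executioner caspases, while XIAP binds and inhibits these caspases. In the developing mouse retina this pathway removes surplus neurons during the first weeks after birth, and loss of *Bax* is known to spare retinal ganglion cells.

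Of the 8 genes, *Bax* was lower and *Xiap* was higher in *Mll1KO* retinas, the latter except where libraries were scaled to equal rod RNA, and the other 6 did not pass the test in the deposited scale. With equal rod RNA, 5 of these 6 were called lower, beside 9558 of all 11339 genes. Of 38 further pathway genes, 4 were called higher and 6 lower in the deposited scale, beside 8.81% and 14.5% of all genes. The BH3-only gene *Bbc3* was among the lower ones. *Endog*, which encodes a mitochondrial nuclease, was among the higher ones, though not with equal rod RNA. Levels are given as RPKM, reads scaled to gene length and to the total reads of the library, so that they can be compared between genes. Differences are *Mll1KO* minus WT on the scale of log2(RPKM + 1), which understates the change of genes with low RPKM. A gene was called when its adjusted p from limma, over all 11339 genes, was under 0.05. By this rule 2 of the 8 genes were called, beside 23.3% of all genes. One was called higher, beside 8.81% of all genes, and 1 was called lower, beside 14.5%. The median difference was −0.0042 for the 8 genes and −0.03 for all genes, and the median of the absolute differences was 0.10 and 0.09, respectively. The values of the genotypes did not overlap for 3 of the 8 genes, beside 41.0% of all genes. The share of the 8 genes that was called is near that of the table, and what follows describes single genes. In bulk tissue, fewer cells of a type and less RNA per cell cannot be told apart.

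The targeted gene, listed as *Kmt2a*, had 36.1, 36.9 and 34.6 RPKM in the WT libraries and 22.9, 20.4 and 22.3 RPKM in the *Mll1KO* libraries. Every *Mll1KO* library lay below every WT library, and the difference was −0.69 (SE 0.05; limma adjusted p = 2.8e-05). These values count reads over all exons of the gene, of which the deletion removes only a part. The libraries held 17961097 to 23836033 reads by totals recovered from the RPKM values. The 8 genes were covered by 181 to 6269 reads per library.

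*Bax*, which encodes an effector of mitochondrial permeabilisation, lies on chr7:45461697-45466898 (GRCm38, minus strand). It had 32.9, 34.4 and 35.6 RPKM in the WT libraries and 28.4, 27.9 and 28.8 RPKM in the *Mll1KO* libraries. All 3 *Mll1KO* libraries lay below all 3 WT libraries, with a gap larger than the spread within either genotype. The mean fell from 34.3 ± 1.37 to 28.4 ± 0.478 RPKM (SD, n = 3), or to 82.7% of WT, a difference of −0.26 (SE 0.04; 95% confidence interval −0.36 to −0.17; limma adjusted p = 0.00197). In the annotation 12.2% of the exon bases of *Bax* are shared with *Gm45808* on the same strand, so that part of its reads cannot be assigned to one of them.

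*Bak1*, the other effector gene, lies on chr17:27019810-27029009 (minus strand). Its RPKM was 7.18, 6.07 and 6.75 in WT and 5.27, 6.05 and 6.36 in *Mll1KO*. The genotypes overlapped, and the difference of −0.15 (95% confidence interval −0.32 to 0.02; limma adjusted p = 0.171) was not called, while with equal rod RNA it was −0.43 and was called. With 1 library left out in turn it lay between −0.21, without WT b, and −0.09, without *Mll1KO* a, with no call. A p that misses the threshold does not show that levels are alike, and the interval reaches beyond the fitted difference of *Bax*. For *Bak1*, 25.5% of exon bases overlap other genes, 18.2% *Ggnbp1* on the opposite strand, and whether strand was used in counting is not given in the sources used here. Summed over both effectors, RPKM was 40.1, 40.5 and 42.4 in the WT libraries and 33.7, 33.9 and 35.2 in the *Mll1KO* libraries.

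*Apaf1*, the scaffold of the apoptosome (chr10:90989311-91082770, minus strand), had 2.46, 2.82 and 2.56 RPKM in WT and 2.46, 2.48 and 2.48 RPKM in *Mll1KO*. The lowest WT library was level with the *Mll1KO* libraries. Its difference was −0.06 (95% confidence interval −0.18 to 0.07; limma adjusted p = 0.505), and −0.29 with a call when rod RNA was made equal. *Casp9*, the initiator caspase of the apoptosome (chr4:141793612-141815976, plus strand), had 5.78, 5.87 and 5.79 RPKM in WT and 5.35, 6.12 and 5.72 RPKM in *Mll1KO*. The *Mll1KO* libraries lay on both sides of the WT values and were spread more widely (SD 0.383 against 0.0486 RPKM). The difference was −0.02 (95% confidence interval −0.15 to 0.11; limma adjusted p = 0.842), and with equal rod RNA it was −0.29 and was called.

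*Bcl2l11*, which encodes the BH3-only protein BIM, an activator of the effectors, lies on chr2:128126038-128162547 (plus strand). It had 2.84, 2.97 and 2.66 RPKM in WT and 2.88, 3.30 and 2.71 RPKM in *Mll1KO*. The genotypes overlapped, with a difference of 0.05 (95% confidence interval −0.10 to 0.20; limma adjusted p = 0.632). With equal rod RNA the sign turned, and it was called lower at −0.19.

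*Bcl2*, a pro-survival gene that restrains the effectors (chr1:106538178-106714274, minus strand), was the least abundant of the 8, with 0.985, 0.999 and 1.15 RPKM in WT and 1.38, 1.16 and 1.22 RPKM in *Mll1KO*. All 3 *Mll1KO* libraries were above all 3 WT libraries, by a margin of less than the SD of either genotype. The mean was 1.05 ± 0.0930 RPKM in WT and 1.25 ± 0.119 RPKM in *Mll1KO* (SD, n = 3). Its difference of 0.14 (95% confidence interval 0.01 to 0.27; limma adjusted p = 0.116) was not called. At about 1 RPKM the pseudocount of 1 shrinks it, and limma-voom on reads gave 0.27, again without a call. *Bcl2l1*, which encodes the pro-survival protein BCL-XL (chr2:152780668-152831728, minus strand), had 15.0, 14.5 and 14.7 RPKM in WT and 14.2, 14.8 and 15.5 RPKM in *Mll1KO*. Its *Mll1KO* values enclosed the WT values. The difference of 0.01 had a 95% confidence interval of −0.09 to 0.11 (limma adjusted p = 0.891), narrower than those of the less abundant family members. With equal rod RNA its sign turned as well, and it was called lower at −0.29.

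*Xiap*, an inhibitor of caspase-9 and of the executioner caspases (chrX:42059679-42109656, plus strand), had 25.5, 25.6 and 24.1 RPKM in WT and 29.0, 32.0 and 31.8 RPKM in *Mll1KO*. Every *Mll1KO* library exceeded every WT library. The mean was 25.1 ± 0.843 RPKM in WT and 30.9 ± 1.69 RPKM in *Mll1KO* (SD, n = 3), or 123% of WT, and the difference was 0.29 (SE 0.05; 95% confidence interval 0.18 to 0.40; limma adjusted p = 0.00268), except that it was −0.018 with libraries scaled to equal rod RNA.

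**Figure D1:**
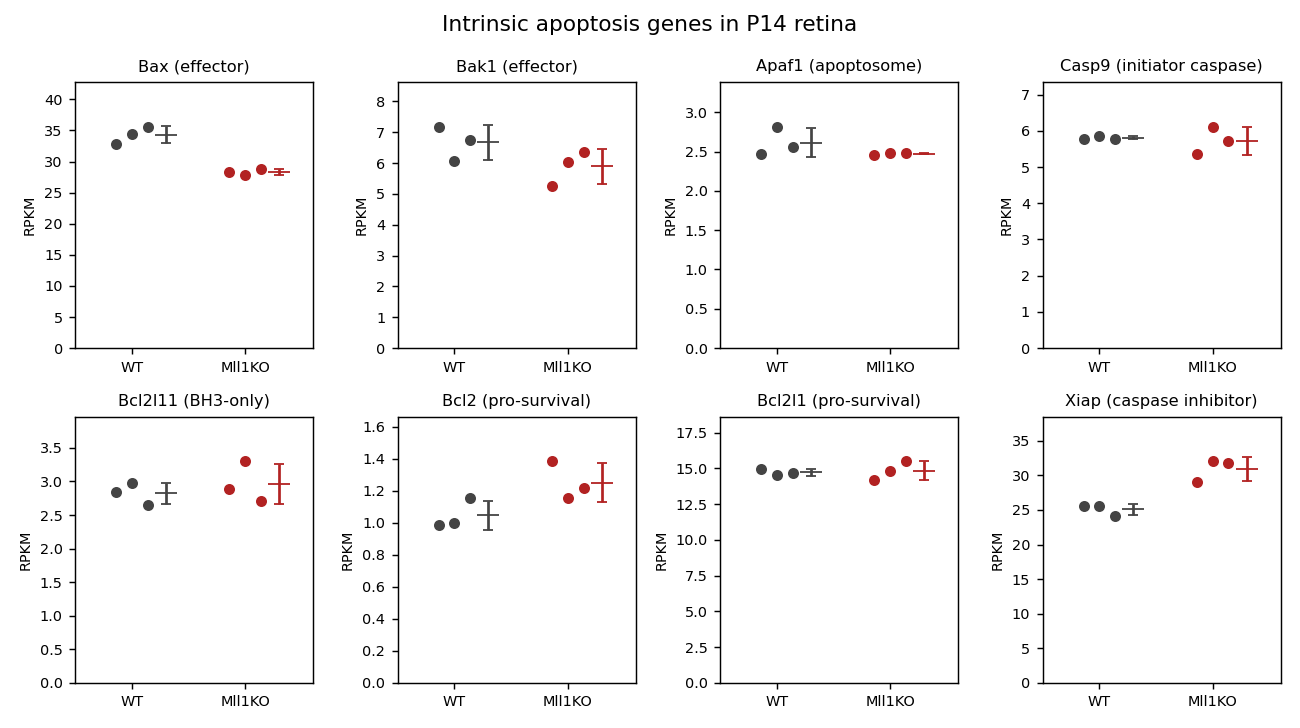
RPKM of the 8 intrinsic apoptosis genes in each of the 3 WT (grey) and 3 *Mll1KO* (red) libraries, with the mean and SD beside the points and each axis starting at 0. *Bax* lay at 32.9 to 35.6 RPKM in WT and at 27.9 to 28.8 RPKM in *Mll1KO*, and *Xiap* at 24.1 to 25.6 and 29.0 to 32.0 RPKM; with libraries scaled to equal rod RNA the difference of *Xiap* was −0.018.

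Rod RNA differed between the genotypes, so values were also computed with each library scaled to an equal sum over rod genes. The RPKM of 18 rod genes summed to 18160, 17100 and 17590 in the WT libraries and to 21890, 22310 and 21740 in the *Mll1KO* libraries. Equal rod sums moved the median difference of all genes by −0.28, to −0.31. *Bax* was then at −0.57 and was still called, *Xiap* was at −0.018 and was not called (limma adjusted p = 0.775), and *Bcl2l1* and *Bcl2l11* were called lower, at −0.29 and −0.19. *Bak1*, *Apaf1* and *Casp9* were called lower as well, at −0.43, −0.29 and −0.29, and *Bcl2* was at −0.03. Relative to the median of all genes in the same setting, *Bax* was at −0.26 and *Xiap* at 0.29, against −0.23 and 0.32 in the deposited scale. With median-of-ratios or trimmed mean of M-values (TMM) factors, *Bax* and *Xiap* were called in the same direction as before. Of all genes, 999 were called higher and 1644 lower in the deposited scale, 1276 and 1126 with median-of-ratios factors, 1250 and 1183 with TMM factors, and 205 and 9558 of 11339 with equal rod sums. The lower calls of members under equal rod sums were therefore shared with most genes of the table.

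By RPKM the order of the 8 genes in WT retina was *Bax*, *Xiap*, *Bcl2l1*, *Bak1*, *Casp9*, *Bcl2l11*, *Apaf1* and *Bcl2*. In WT the ranges of *Bcl2l11* and *Apaf1* overlapped, so these neighbours were not separated by their spread. In *Mll1KO* retina *Xiap* stood above *Bax* in RPKM, with ranges that did not overlap, and the ranges of *Bak1* and *Casp9* overlapped. The place of *Bax* depends on gene length: its RPKM rests on 869 bases, while its exons in the annotation used here merge to 1576 bases, over which its mean would be 18.9 in WT and 15.6 in *Mll1KO*. *Xiap* over its annotated exons would be at 24.5 and 30.2, above *Bax* in both genotypes. *Bax* ranked above 87.7% of all genes by mean RPKM in WT and *Bcl2* above 0.838%.

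As a description of members only, the RPKM of *Bcl2* and *Bcl2l1* together was divided by that of *Bax* and *Bak1* together in each library. Left out were the pro-survival genes *Mcl1* (22.8 RPKM in WT and 23.1 in *Mll1KO*) and *Bcl2l2* (23.2 and 26.1), each more abundant than *Bcl2l1*. The level of this ratio therefore does not give the balance of the whole family. This ratio was 0.399, 0.384 and 0.373 in the WT libraries and 0.464, 0.471 and 0.475 in the *Mll1KO* libraries. The lowest *Mll1KO* ratio exceeded the highest WT ratio. The means were 0.385 ± 0.0127 and 0.470 ± 0.00563 (SD, n = 3), a log2 ratio of 0.29. *Bcl2l1* over *Bax* alone had means of 0.430 in WT and 0.523 in *Mll1KO*. The levels of both ratios rest on the 869 bases behind the RPKM of *Bax*. Over its annotated exons *Bax* would be at 18.9 in WT and 15.6 in *Mll1KO*, which would raise both ratios in both genotypes. A scaling factor of a library cancels in such a ratio, and its denominator holds *Bax*, which was itself called lower. No test was made of it.

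*Knop1* and *Pno1* were among the 3 genes whose log2(RPKM + 1) followed that of *Bax* most closely over the 6 libraries, with Pearson correlations of 0.998 for both. The points share their libraries and their genotypes. *Knop1* had a mean of 10.3 RPKM in WT and 8.44 in *Mll1KO*, and *Pno1* 6.30 and 4.77.

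Beyond the 8 genes, 38 of 65 further genes named as parts of, inputs to or targets of the pathway were in the table; the others were not analysed here. Of the 38, 4 were called higher and 6 lower, beside 8.81% and 14.5% of all genes, and their median difference was −0.04, beside −0.03 for all genes. The split depended on scaling: 4 were called higher and 3 lower with median-of-ratios or TMM factors. With equal rod sums 0 were called higher and 32 lower, beside 205 and 9558 of all 11339 genes.

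Among genes for proteins released from mitochondria, 1 of 4 was called. *Endog*, which encodes a mitochondrial nuclease, had 8.45, 7.66 and 8.57 RPKM in WT and 10.2, 10.7 and 10.5 RPKM in *Mll1KO*. The genotypes did not overlap (difference 0.32, SE 0.05; limma adjusted p = 0.00282), but with equal rod RNA the difference was 0.03 and was not called. For *Endog*, 35.6% of exon bases overlap *Spout1* on the opposite strand, and its value is uncertain for that reason. *Diablo*, *Htra2* and *Aifm1* were not called, with differences of −0.07, 0.01 and −0.10. Of the exon bases of *Diablo* and *Htra2*, 40.9% and 43.7% overlap other genes, more than for *Endog*, so that their values are uncertain too, while *Aifm1* has no such overlap.

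Of the 3 further BH3-only genes in the table, *Bbc3*, which encodes the p53 target PUMA, was called lower. Its RPKM was 6.27, 6.27 and 6.21 in WT and 4.05, 3.46 and 5.02 in *Mll1KO*. The WT libraries were nearly equal and the *Mll1KO* libraries were spread more widely (SD 0.0335 against 0.786 RPKM), all below WT, with a mean of 66.8% of WT (difference −0.50, SE 0.09; limma adjusted p = 0.00482). *Bmf* was at −0.19 (95% confidence interval −0.40 to 0.01) and *Bad* at 0.04 (−0.08 to 0.17), neither called; 20.5% of the exon bases of *Bad* overlap *Gpr137* on the opposite strand.

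Of the 2 further pro-survival genes in the table, *Bcl2l2*, which encodes BCL-W, had 21.6, 23.5 and 24.4 RPKM in WT and 25.8, 26.1 and 26.5 RPKM in *Mll1KO*. All *Mll1KO* libraries were above WT (difference 0.17, SE 0.05; limma adjusted p = 0.0337), except that the difference was −0.14 with equal rod RNA. Without WT a, WT b or any 1 *Mll1KO* library in turn the call was lost (limma adjusted p = 0.0511 to 0.105), with a difference of 0.12 without WT a and of 0.16 to 0.18 in the others. In the annotation 13.3% of its exon bases are shared with *Gm20521* on the same strand. *Mcl1*, another pro-survival gene, was at 22.8 RPKM in WT and 23.1 in *Mll1KO* (difference 0.02; 95% confidence interval −0.09 to 0.13). The inhibitor of apoptosis genes *Birc2* and *Birc6* were not called by limma or limma-voom and neither had an unadjusted p under 0.05, and the more abundant, *Birc6*, was at 12.5 and 11.7 RPKM (difference −0.08; 95% confidence interval −0.20 to 0.03). None of the 3 caspase substrate genes passed limma's threshold or that of limma-voom, and 1, the most abundant, *Parp1*, had an unadjusted p under 0.05. It was at 26.1 and 24.1 RPKM (difference −0.11; limma adjusted p = 0.0979).

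Of 10 genes of the p53 axis, 1 was called higher and 1 lower. *Btg2*, a p53 target that restrains proliferation, was at 27.4 ± 1.87 RPKM in WT and 32.3 ± 2.71 in *Mll1KO* (SD, n = 3), a difference of 0.23 (limma adjusted p = 0.0353) that was −0.081 with equal rod RNA. *Mdm4*, a negative regulator of p53, was at 8.37 ± 0.316 and 7.34 ± 0.165 RPKM, a difference of −0.17 (limma adjusted p = 0.0361). With median-of-ratios and TMM factors *Mdm4* was not called, at a similar difference of −0.14 in both (limma adjusted p = 0.07 and 0.066), and with equal rod RNA it was at −0.45 and was called. Without WT a, WT b, *Mll1KO* a or *Mll1KO* c the limma adjusted p of *Btg2* was 0.0549 to 0.108, at differences of 0.17 to 0.26. Without WT b, WT c, *Mll1KO* b or *Mll1KO* c that of *Mdm4* was 0.0741 to 0.138, at differences of −0.18 to −0.14. *Trp53* itself was at 7.57 and 7.30 RPKM and was not called (difference −0.05; 95% confidence interval −0.18 to 0.08).

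Among 8 genes of stress signalling, 1 was called higher and 2 lower. *Ddit3*, which encodes the stress factor CHOP, was at 19.2 ± 0.793 RPKM in WT and 22.1 ± 0.695 in *Mll1KO* (SD, n = 3), a difference of 0.20 (limma adjusted p = 0.0137) that was −0.11 with equal rod RNA. *Mapk8*, which encodes the kinase JNK1, was at 9.89 ± 0.485 and 8.72 ± 0.0682 RPKM (difference −0.16; limma adjusted p = 0.0422). *Foxo3*, a transcription factor that can induce BH3-only genes, was at 26.9 ± 0.480 and 24.3 ± 0.623 RPKM (difference −0.14; limma adjusted p = 0.0307). Neither *Mapk8* nor *Foxo3* was called with median-of-ratios or TMM factors, at limma adjusted p of 0.0813 to 0.0991 and differences of −0.13 and −0.14 for *Mapk8* and −0.11 in both for *Foxo3*, and with equal rod RNA both genes were at −0.45 and were called. *Ddit3* was not called without *Mll1KO* c, at a difference of 0.18 (limma adjusted p = 0.0578). The calls of *Mapk8* and *Foxo3* were each lost without 5 of the 6 libraries in turn, all but WT c for *Mapk8* and all but *Mll1KO* a for *Foxo3*, with limma adjusted p up to 0.148 and 0.101. The differences in these fits were −0.17 to −0.14 for *Mapk8* and −0.15 to −0.12 for *Foxo3*. None of the 4 genes of the extrinsic, death receptor pathway passed the threshold of limma or limma-voom, 0 had an unadjusted p under 0.05, and the most abundant, *Tnfrsf1a*, was at 3.82 and 4.32 RPKM (difference 0.15; 95% confidence interval −0.03 to 0.32).

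**Figure D2:**
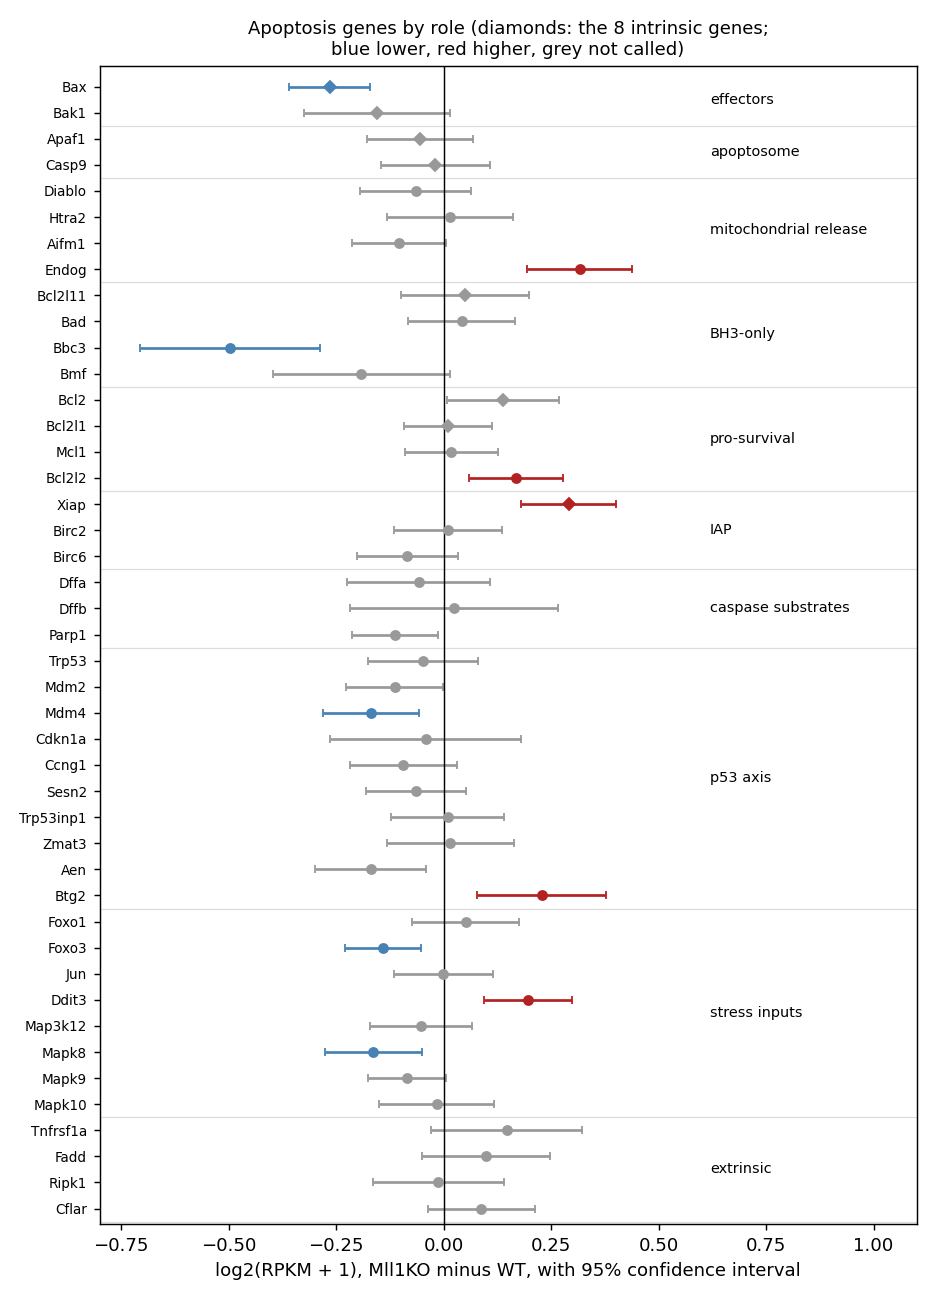
Difference of log2(RPKM + 1), *Mll1KO* minus WT, with its 95% confidence interval, for the 8 intrinsic apoptosis genes (diamonds) and further pathway genes (circles), by role, with genes called lower in blue, higher in red and not called in grey. *Bbc3* at −0.50 and *Bax* at −0.26 were called lower, and *Endog* at 0.32 and *Xiap* at 0.29 were called higher; with equal rod RNA, the latter pair was at 0.03 and −0.018 and was not called.

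Markers of the cell types of the retina moved between the genotypes as well, and their part in the differences of the apoptosis genes was not tested. Of all genes, 8.81% were called higher and 14.5% lower in the deposited scale. Of 18 rod genes 12 were called higher and 1 lower, and *Guca1b* differed most (0.83). Of 10 cone genes 7 were called higher and 1 lower, with *Opn1mw* the most abundant (difference 0.56) and *Arr3* at 0.66. Of 12 Müller glia genes 6 were called higher and 1 lower, with *Glul* at 0.47 and *Clu* at 0.68, and all 3 astrocyte genes in the table were called higher, with *Gfap* at 0.97. Of 7 horizontal cell genes found, 6 were called lower, with *Sept4* at −0.40 and *Onecut1*, which shares 52.8% of its exon bases with *Gm20649* on the same strand, at −0.64. Of 12 bipolar cell genes 7 were called lower and 0 higher, with *Vsx1* at −0.68. Of 11 amacrine cell genes 2 were called higher and 5 lower, with *Calb2*, which ganglion cells also express, at −0.50. Of 10 ganglion cell genes found, 9 were called lower, with *Sncg* at −0.55 and *Pou4f2* at −0.89. Of 7 endothelial genes 1 was called higher and 2 lower, with *Kdr* at −0.73. None of 4 microglial and 3 cell cycle genes found passed the threshold of limma or limma-voom and 0 had an unadjusted p under 0.05, with *C1qb* at −0.12, *C1qc* at 0.15, *Pcna* at −0.10 and *Plk1* at 0.18. With equal rod RNA, 205 of all 11339 genes were called higher and 9558 lower, so lower calls there were shared with most genes. In that setting 2 rod genes were called higher and 5 lower, and 3 cone genes higher and 3 lower. Of the glial lists, 2 Müller glia genes were called higher and 6 lower, and 1 astrocyte gene higher and 0 lower. In the same setting 7 horizontal, 12 bipolar, 8 amacrine and 10 ganglion cell genes were called lower and 0 higher. The same held for 5 endothelial, 2 microglial and 2 cell cycle genes.

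The summed RPKM of the rod list, given above, and of the lists that follow did not overlap between the genotypes. The cone list summed to 363, 377 and 392 in the WT libraries and to 431, 450 and 470 in the *Mll1KO* libraries, and the Müller glia list to 1475, 1451 and 1602 and to 1860, 1953 and 1915. The horizontal cell list summed to 156, 156 and 151 in WT and to 113, 116 and 125 in *Mll1KO*, and the bipolar list to 632, 623 and 611 and to 517, 519 and 528. The ganglion cell list summed to 575, 535 and 562 in WT and to 452, 402 and 375 in *Mll1KO*, and the amacrine list to 710, 706 and 736 and to 664, 654 and 675. The lower amacrine sum came from *Calb2*: without it the list summed to 468, 447 and 473 in WT and to 465, 477 and 511 in *Mll1KO*, which overlapped, and the median difference of the full list was 0.07. The astrocyte list summed to 10.6, 11.5 and 11.7 in WT and to 19.4, 18.9 and 18.9 in *Mll1KO*, and the endothelial list to 90.4, 88.8 and 87.1 and to 72.1, 64.4 and 66.3.

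Tissue next to the retina varied between libraries within a genotype. The 4 pigment epithelium genes in the table, of which *Ttr* was the most abundant, summed to 170, 99.3 and 248 RPKM in the WT libraries and to 88.4, 180 and 91.4 RPKM in the *Mll1KO* libraries. In the deposited scale no gene was called by limma or limma-voom and 1 of the 4 had an unadjusted p under 0.05. With equal rod RNA 2 of the 4 were called lower, beside 9558 of all 11339 genes. *Pmel*, a pigment cell gene, ranged from 15.1 to 99.4 RPKM in WT and from 9.37 to 34.0 RPKM in *Mll1KO*. WT b, the lowest WT library in *Pmel*, had 34.4 RPKM of *Bax* and 25.6 of *Xiap*, and WT c, the highest, had 35.6 and 24.1. Without WT c and *Mll1KO* b, the libraries with the highest pigment epithelium sums, *Bax* and *Xiap* were both still called. In that fit, which fewer samples entered, 6 of the 38 further pathway genes were called in place of 10. The genes that lost their call kept differences of similar size. *Bcl2l2* was at 0.21 against 0.17 with all libraries, *Mapk8* at −0.20 against −0.16, *Mdm4* at −0.16 against −0.17 and *Foxo3* at −0.12 against −0.14. The lens gene *Cryaa* was at 32.1 RPKM in *Mll1KO* a and at 6.54 to 12.4 RPKM in the other libraries, and leaving out *Mll1KO* a ended the call of neither *Bax* nor *Xiap*.

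Since *Bax* and *Xiap* were the members that were called, in opposite directions, the sequence before their starts is shown, from RefSeq promoters on GRCm38.p6. For the 8 genes, 13 windows were found, each of 300 bases, 250 before and 50 after a start. They held 1 to 46 CG dinucleotides, with a median of 20, beside a median of 21 over the 11412 windows of genes in the table. The GC box GGGCGG, searched on both strands, occurred in 8 of the 13 windows, beside 63.4% of windows of genes in the table, and CCAAT on both strands occurred in 2 of the 13, beside 37.3%. The window of *Bax* held 19 CG, and the 3 windows of *Xiap* held 20, 5 and 2 CG, of which the one with the most is shown. That window precedes 1 of the 3 RefSeq starts of *Xiap* and lies inside the gene span given above, not before its outermost start. The 250 bases before the start of *Bax* (chr7:45466899-45467148, minus strand) and of *Xiap* (chrX:42068148-42068397, plus strand) are printed 5′ to 3′ with each CG in capitals, 14 in *Bax* and 13 in *Xiap*. A match to these letters is a description and not a binding site.
Bax: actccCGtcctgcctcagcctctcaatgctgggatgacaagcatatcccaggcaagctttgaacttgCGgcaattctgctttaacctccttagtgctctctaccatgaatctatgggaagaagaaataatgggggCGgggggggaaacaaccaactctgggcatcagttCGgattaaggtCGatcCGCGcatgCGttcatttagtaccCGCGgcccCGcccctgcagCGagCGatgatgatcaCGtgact
Xiap: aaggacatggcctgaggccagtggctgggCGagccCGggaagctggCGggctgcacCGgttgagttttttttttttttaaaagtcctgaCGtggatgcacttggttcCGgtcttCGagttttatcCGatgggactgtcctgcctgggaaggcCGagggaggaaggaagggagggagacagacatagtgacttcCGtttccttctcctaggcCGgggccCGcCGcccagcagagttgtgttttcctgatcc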

How the data were processed

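RPKM values were computed by the authors, who aligned single-end reads of poly(A)-selected, rRNA-depleted RNA with STAR 2.0.4b, counted them with featureCounts 1.45, and kept genes that exceeded a CPM of 5 in 5 or more samples. The submitters' notes name mm10, while the study's methods write a GRCh38 build; coordinates here are from GENCODE on GRCm38. The table also holds log2 fold changes, log2 mean CPM, p-values and FDR of the authors' comparison with edgeR, which were not used.

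The table had 11404 lines for 11339 genes. Repeated lines of 59 gene IDs held identical values and were kept once, 18 symbols turned into dates were restored from gene IDs, and 11323 IDs matched the annotation. Library totals were recovered as those that make the reads of genes whole at their annotated exon lengths. Gene lengths were then sought that make the reads of a gene whole within 0.01 reads in all 6 libraries. Such a length was found for 100% of genes. Among lengths that met the CPM filter, the annotated exon length was taken where it was one of them, and otherwise the shortest. Totals were 23836033, 19777205 and 19323512 reads for WT a, b and c and 23348923, 19855963 and 17961097 for *Mll1KO* a, b and c.

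The genotypes were compared with limma 3.58.1 in R 4.3.3 on log2(RPKM + 1) of all 11339 genes, with a variance trend and Benjamini-Hochberg adjustment. The fit was tested on simulated data with known answers. The members and gene lists were chosen with earlier results of these data known. Named genes were the 8 members, *Kmt2a*, called genes of each apoptosis list or else its most abundant one, the most abundant and most different gene of each marker list, and the 3 genes most correlated with the member of largest moderated t. *Trp53*, *Mcl1*, *Diablo*, *Htra2*, *Aifm1*, *Bmf*, *Bad*, *Birc2* and *Pmel* were added after their values were seen. Alternatives were pseudocounts of 0.1 and 5, a mean RPKM of at least 1, median-of-ratios, TMM and equal rod scaling, limma-voom on recovered reads, a replicate block, and each library left out. Leaving out the library of each genotype with the most pigment epithelium RNA was chosen after seeing the data. Some genes named by these rules or counted in the totals are not reported here. The p-values measure the spread between pools of 2 retinas.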

Additional observations from a re-analysis of the deposited data

How the results depend on the processing

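Over 15 alternatives, *Bax* and *Bbc3* kept their direction and their call in every one, and *Xiap* and *Endog* in all but equal rod scaling. Of 120 pairs of a member and an alternative, 114 kept the member's call or lack of one. The exceptions were all under equal rod scaling, and why rod RNA differed was not tested. That scaling divided WT libraries by 0.87 to 0.92 and *Mll1KO* libraries by 1.11 to 1.13, which moved the median of all genes by −0.28. There 9763 genes (205 higher and 9558 lower), 6 members and 32 further pathway genes were called, in place of 2643, 2 and 10. Among the members, and among the pathway genes called in the deposited scale, the following changed sign there with a call before or after. The log2 differences there were −0.19 for *Bcl2l11*, −0.29 for *Bcl2l1*, −0.018 for *Xiap*, −0.14 for *Bcl2l2*, −0.081 for *Btg2* and −0.11 for *Ddit3*. Pathway genes not called in the deposited scale also turned from a positive difference to a lower call, among them *Bad*, *Birc2* and *Htra2*.

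Leaving out 1 library in turn gave 1704 to 2536 genes called, 2 members in each case, and 4 to 10 further pathway genes; fewer samples enter these fits. The differences then ranged from −0.29 to −0.24 for *Bax*, from 0.26 to 0.34 for *Xiap*, from −0.21 to −0.09 for *Bak1*, from −0.09 to −0.02 for *Apaf1*, from −0.06 to 0.02 for *Casp9*, from −0.01 to 0.10 for *Bcl2l11*, from 0.10 to 0.18 for *Bcl2* and from −0.018 to 0.04 for *Bcl2l1*, with the last 6 not called in any. The lowest counts came without WT b (1704 genes, 5 pathway genes) and without *Mll1KO* c (1757 and 4), and 6 pathway genes were called without *Mll1KO* b. Without the libraries highest in pigment epithelium markers, 1662 genes, 2 members and 6 further pathway genes were called, and fewer samples entered this fit as well. The log2 ratio of *Bcl2* and *Bcl2l1* to *Bax* and *Bak1* RPKM was 0.29 and lay between 0.26 and 0.31 with 1 library left out. For *Bcl2* over *Bax* alone it was 0.53, and the cause was not tested.

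With the replicate letter as a replicate block, 2242 genes, 2 members and 7 further pathway genes were called, and *Btg2*, *Mdm4* and *Mapk8* lost their call. Their differences of 0.23, −0.17 and −0.16 were the same as without the block, with limma adjusted p of 0.0676, 0.0718 and 0.0694. The labels share letters, but deviations of same-letter libraries from their group means correlated across genes at −0.04, −0.19 and −0.01. Those of different-letter libraries correlated at −0.09 to 0.13. These values gave no sign that the letters pair the samples. With so few libraries per genotype the deviations are not independent, so whether samples were paired cannot be decided from them. *Bcl2*, which was not called, was covered by 181 to 296 reads per library, and *Endog*, which was called, by 161 to 253; the smallest difference that could be detected at a given depth was not measured.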
